A study of Mus musculus with 20 samples.

Results

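The genes described here are imprinted, that is, expressed mainly from the copy inherited from 1 parent. They were 33 genes chosen by symbol, and 29 of them had a probe set annotated to that gene alone, 73 of the 45037 probe sets and 29 of the 18193 genes measured. Dio3, Rtl1 and Zrsr1 were annotated to none of the probe sets, and H19 only to a probe set shared with Mir675, which is given beside the members and outside their counts. RNA of whole brain was profiled on 20 Affymetrix mouse genome arrays at postnatal day 3. Of these, 10 were from HDAC4 KO pups and 10 from WT littermates, each genotype with 5 arrays labelled male and 5 labelled female, on the B6CBAF1/OlaHsd background and untreated. The methods give 1 brain per array. HDAC4 KO pups are homozygotes from an intercross of carriers, so the allele is not restricted to the brain, and which part of Hdac4 it lacks is not stated in the sources used here. The question was which transcripts differ in the neonatal brain when HDAC4, a class IIa histone deacetylase, is absent.

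Imprinted genes lie in clusters, each governed by a control region that is methylated in 1 germ line and kept methylated after fertilization, so that genes of 1 cluster can be expressed from opposite parental copies. Many paternally expressed genes promote growth and many maternally expressed genes restrain it, and several members are abundant in the developing brain, the hypothalamus, the choroid plexus and the meninges. The arrays read the sum of both copies and cannot tell the alleles apart, so the parental allele named for each gene is background and not a measurement. All values are log2 signals, and a level is compared only within 1 probe set, since signals of different probe sets share no scale. For a gene with several probe sets, the one with the highest mean signal over the 20 arrays is called the brightest.

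The promoters of 3 paternally expressed members are shown because Mest was the member with the largest change at a brightest probe set, while Nnat and Nap1l5, with windows of the same CpG count, did not pass the test. Each window runs from 250 bases before to 50 after an annotated start (RefSeq, GRCm38.p6) and is read 5′ to 3′ on the strand of the gene. Capitals mark TGCCGC or its reverse complement GCGGCA, the core that the imprint-keeping factor ZFP57 binds when it is methylated. The windows are Mest upstream start, chr6:30733256-30733555 (+), Mest main start, chr6:30737803-30738102 (+), Nnat, chr2:157559828-157560127 (+), and Nap1l5, chr6:58907077-58907376 (−).
Mest upstream start: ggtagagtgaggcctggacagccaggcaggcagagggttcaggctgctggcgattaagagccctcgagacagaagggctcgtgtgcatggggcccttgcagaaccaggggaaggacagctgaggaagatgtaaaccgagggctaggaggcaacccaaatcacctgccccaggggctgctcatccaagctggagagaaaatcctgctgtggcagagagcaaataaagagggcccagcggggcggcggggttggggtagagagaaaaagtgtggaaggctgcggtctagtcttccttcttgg
Mest main start: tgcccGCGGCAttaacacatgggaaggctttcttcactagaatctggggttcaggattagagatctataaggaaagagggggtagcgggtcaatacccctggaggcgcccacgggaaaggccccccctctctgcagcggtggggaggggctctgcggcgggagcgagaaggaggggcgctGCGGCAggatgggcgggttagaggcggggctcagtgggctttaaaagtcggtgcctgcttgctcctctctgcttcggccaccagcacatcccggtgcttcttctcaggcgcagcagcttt
Nnat: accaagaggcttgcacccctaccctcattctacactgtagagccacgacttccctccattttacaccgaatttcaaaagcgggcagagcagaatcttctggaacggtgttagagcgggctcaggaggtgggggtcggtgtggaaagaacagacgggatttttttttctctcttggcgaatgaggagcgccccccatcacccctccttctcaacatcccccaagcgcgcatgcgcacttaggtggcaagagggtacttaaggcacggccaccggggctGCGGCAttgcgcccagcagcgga
Nap1l5: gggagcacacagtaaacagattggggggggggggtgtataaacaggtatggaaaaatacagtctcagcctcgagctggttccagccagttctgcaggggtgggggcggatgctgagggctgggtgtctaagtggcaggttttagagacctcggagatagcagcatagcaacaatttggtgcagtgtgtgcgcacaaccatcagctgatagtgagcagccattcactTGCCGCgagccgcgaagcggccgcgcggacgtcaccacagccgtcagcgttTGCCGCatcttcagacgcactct
The main start of Mest held 17 CpG and 2 matches, that of Nap1l5 17 CpG and 2 matches, that of Nnat 17 CpG and 1 match, and the upstream start of Mest 8 CpG and 0 matches. Usp29, also paternally expressed and not called, had a window with 17 CpG and 0 matches, which is not shown. Of the listed genes, 27 of 33 had a window, 40 windows in all, some of which overlap. The motif was searched on both strands and was present in 10 of the 40 member windows (25.0%, 9 genes), against 11.6% of 32851 windows of all genes. At least 2 matches were present in 7.5% of the member windows and 1.53% of all windows. The former were 3 windows, that of Nap1l5 and 2 of Mest that overlap almost fully, so Mest is counted more than once. The median number of CpG was 13 in the member windows and 7 in all windows. The binding consensus of the MEF2 factors, the transcription factors that HDAC4 is best known to bind, was found in 0 of 40 member windows and in 3.19% of all windows. A match is a run of letters and no measure of binding, and methylation was not measured.

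Hdac4 was lower in every HDAC4 KO array, with signals of 6.02 to 7.43 in HDAC4 KO and 7.54 to 8.08 in WT at its brightest probe set (log2 fold change −1.39, adjusted p = 6.28e-07 from limma). The highest HDAC4 KO signal was in replicate 10 and the lowest WT signal in replicate 8. Xist and Kdm5d both went against the labelled sex in WT replicates 5 and 9. In HDAC4 KO replicate 10, labelled male, Xist was high (12.27), which goes against the label. Its Kdm5d was 6.88, against 2.82 in the lowest HDAC4 KO array, which goes with the label, so this array carried both signals. These 3 arrays are the ones described below as at odds with their sex label. The difference between the 3′ and 5′ probe sets of actin and Gapdh, a measure of RNA integrity, was 0.22 ± 0.03 in HDAC4 KO and 0.19 ± 0.03 in WT (SD, n = 10 each). Neuronal markers averaged 12.47 to 12.54 in HDAC4 KO and 12.44 to 12.53 in WT over 12 genes. Hdac4 is on chromosome 1, which carries 0 of the members.

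Of the 73 member probe sets, 2 were lower in HDAC4 KO and 0 were higher at an adjusted p under 0.05 in limma, for Mest and Cdkn1c. The test called 2.06% of all 45037 probe sets, 1.05% higher and 1.01% lower, so the members' count lies near the background. At an unadjusted p under 0.05, 8 member probe sets were higher and 11 lower, while 9.93% of all probe sets were higher and 8.10% lower, 18.0% in all. The ranges of the genotypes overlapped at every member probe set, and 0.0777% of all probe sets had ranges that did not overlap. A t-test on the same values, which the methods name, called 1 higher, a Gnas probe set, and 1 lower, that of Mest. The median log2 fold change was −0.00 over the member probe sets and 0.00 over all probe sets. With the brightest probe set taken for each gene, 2 of 29 members were called, against 1.96% of the 18193 genes. Here 3 members were higher and 4 lower at an unadjusted p under 0.05 (12.8% and 6.19% of all genes), and 14 of the 29 fold changes were below 0. The count of lower member probe sets was 0 without WT replicate 2, WT replicate 6, HDAC4 KO replicate 7 or HDAC4 KO replicate 8 and 4 without WT replicate 9, where 1 was higher. It was 1 without WT replicate 1, 3, 4, 5 or 7 or HDAC4 KO replicate 5, 9 or 10.

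**Figure D1:**
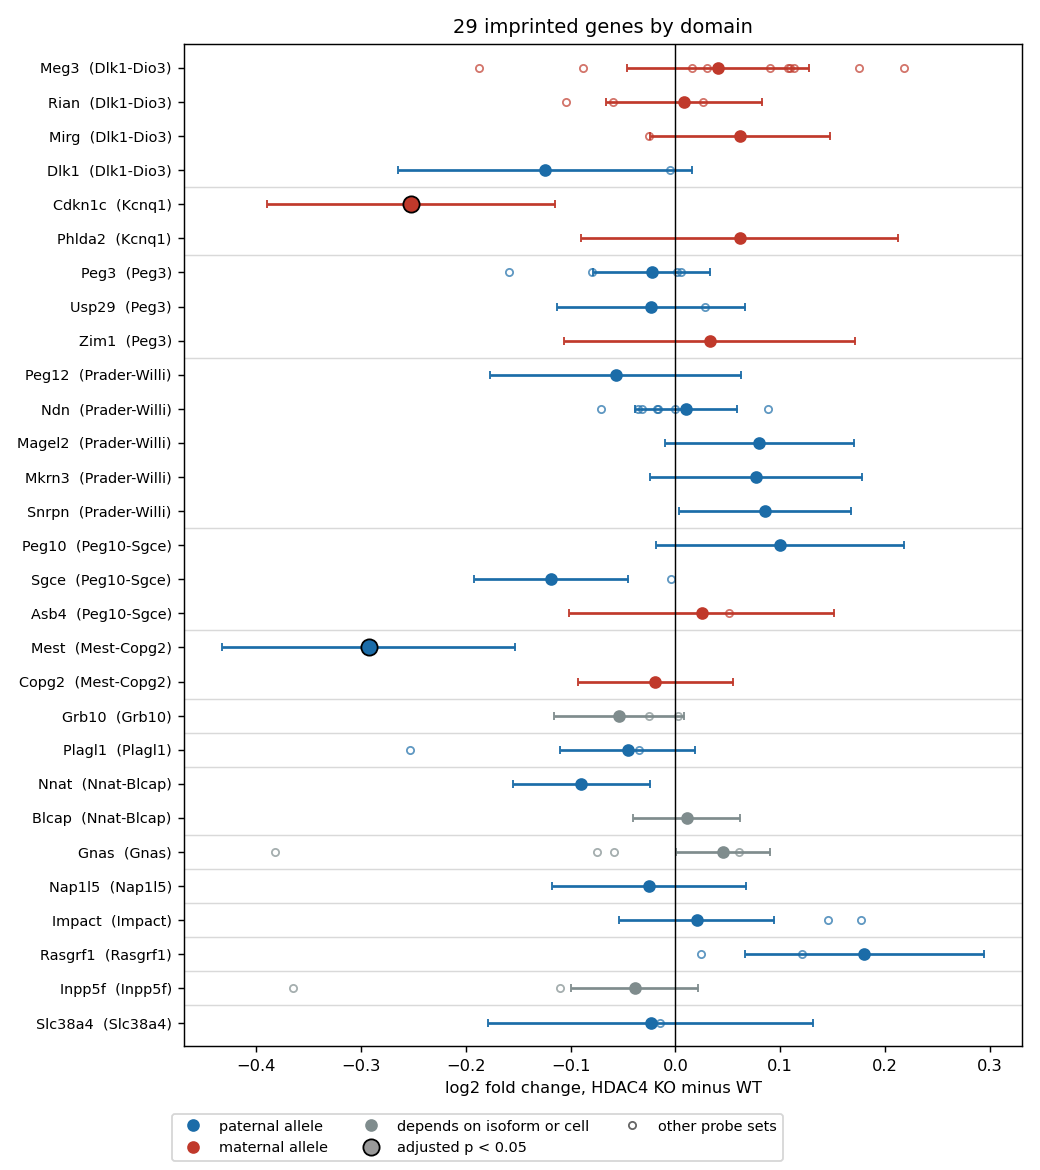
The log2 fold change (HDAC4 KO minus WT) on the x axis is given for each of the 29 genes, grouped by imprinted domain down the y axis; filled points are the brightest probe set with its 95% confidence interval from limma (n = 10 each), open points the other probe sets, and colours the allele each gene is known to be expressed from. Mest (−0.29) and Cdkn1c (−0.25) are the points with a black rim, and most of the other intervals include 0.

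Mest, a paternally expressed gene for an endoplasmic reticulum protein of the hydrolase fold that promotes fetal growth, was lower in HDAC4 KO. Its signal was 8.20 at the lowest, 8.60 at the median and 8.68 at the highest of the HDAC4 KO arrays, and 8.57, 8.80 and 9.04 in WT. All 10 HDAC4 KO arrays lay below the WT mean and 4 lay below every WT array, while the upper part of the HDAC4 KO range overlapped the lower part of the WT range. The means were 8.53 ± 0.17 in HDAC4 KO and 8.82 ± 0.15 in WT (SD, n = 10 each), a log2 fold change of −0.29 (95% interval −0.43 to −0.15, adjusted p = 0.0299 from limma) or a ratio of 0.816. The log2 fold change was −0.25 among the arrays labelled male and −0.33 among those labelled female. The call was lost without WT replicate 2, WT replicate 6, HDAC4 KO replicate 7 or HDAC4 KO replicate 8, where the adjusted p was 0.0516 to 0.0600, and when the 3′ to 5′ difference entered the model (adjusted p = 0.104 from limma). The range of the adjusted p over all 33 alternatives was 0.00964 to 0.104, and the fold change stayed between −0.33 and −0.26.

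Copg2, a coatomer subunit gene that neighbours Mest on the opposite strand, is known in mouse to be expressed mainly from the maternal copy. Its signals were 8.66, 8.81 and 8.88 at the lowest, median and highest HDAC4 KO array, against 8.71, 8.80 and 8.94 in WT. The ranges lay almost on each other, and the log2 fold change was −0.02 (95% interval −0.09 to 0.05, adjusted p = 0.837 from limma), so a difference of the size of that in Mest lay outside its interval.

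Cdkn1c, a maternally expressed inhibitor of cyclin-dependent kinases that takes progenitors out of the cell cycle, was the other member that was lower. Its signal was 9.20, 9.35 and 9.60 at the lowest, median and highest of the HDAC4 KO arrays, and 9.47, 9.65 and 9.99 in WT. All 10 HDAC4 KO arrays lay below the WT mean and 6 lay below every WT array, and the ranges overlapped between 9.47 and 9.60. The means were 9.39 ± 0.16 in HDAC4 KO and 9.64 ± 0.15 in WT (SD, n = 10 each), a log2 fold change of −0.25 (95% interval −0.39 to −0.12, adjusted p = 0.0494 from limma) or a ratio of 0.839. The fold change was −0.21 among arrays labelled male and −0.30 among those labelled female. The adjusted p lay just under the threshold and passed in 14 of 33 alternatives (0.00633 to 0.184). It missed the threshold when any 1 of 13 arrays was left out, WT replicates 1 to 7 and HDAC4 KO replicates 4, 5, 7, 8, 9 and 10 (adjusted p = 0.0637 to 0.0930). The call was also lost with the t-test that the methods name (adjusted p = 0.0618) and with Welch's test (adjusted p = 0.0690). In limma it was lost with labelled sex in the model (adjusted p = 0.0557). With the 3′ to 5′ difference in the model, the fold change was −0.22 (adjusted p = 0.184 from limma). Both settings added after seeing the data lost it as well (adjusted p = 0.08015 and 0.0828 from limma).

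Phlda2, the maternally expressed growth restrictor in the same cluster on chromosome 7, had signals of 4.94, 5.06 and 5.52 in HDAC4 KO and 4.91, 5.09 and 5.30 in WT. Its log2 fold change was 0.06 (95% interval −0.09 to 0.21, adjusted p = 0.72 from limma), with 5 HDAC4 KO arrays on each side of the WT mean.

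Markers of other cell types were read beside these genes. Of the 17 probe sets of 11 choroid plexus and ependymal genes, 4 were lower and 0 higher, those of Calml4 (−0.38), Ttr (−0.14), which encodes the thyroxine carrier transthyretin, and Sostdc1 (−0.31 and −0.30), with 8 lower at an unadjusted p under 0.05. The mean of the list over its 11 genes was 7.42 to 7.71 in HDAC4 KO and 7.54 to 7.96 in WT. Of 22 probe sets of 12 meningeal and fibroblast genes, 1 was lower, that of Igfbp2 (−0.20), with 4 lower at an unadjusted p under 0.05, and the mean of the list was 8.89 to 9.12 in HDAC4 KO and 8.90 to 9.24 in WT. Among the markers of astrocytes and radial glia, 1 of 31 probe sets was called lower, with 10 lower and 2 higher at an unadjusted p under 0.05, and among those of neurons 3 of 29 were called lower, with 7 lower and 4 higher at that p. For all probe sets of the arrays, the shares were 1.05% called higher and 1.01% lower, and 9.93% higher and 8.10% lower at that unadjusted p. The part of any of these marker lists in the result for Mest and Cdkn1c was not tested. In RNA of whole brain, fewer cells of a type and less RNA per cell cannot be told apart.

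**Figure D2:**
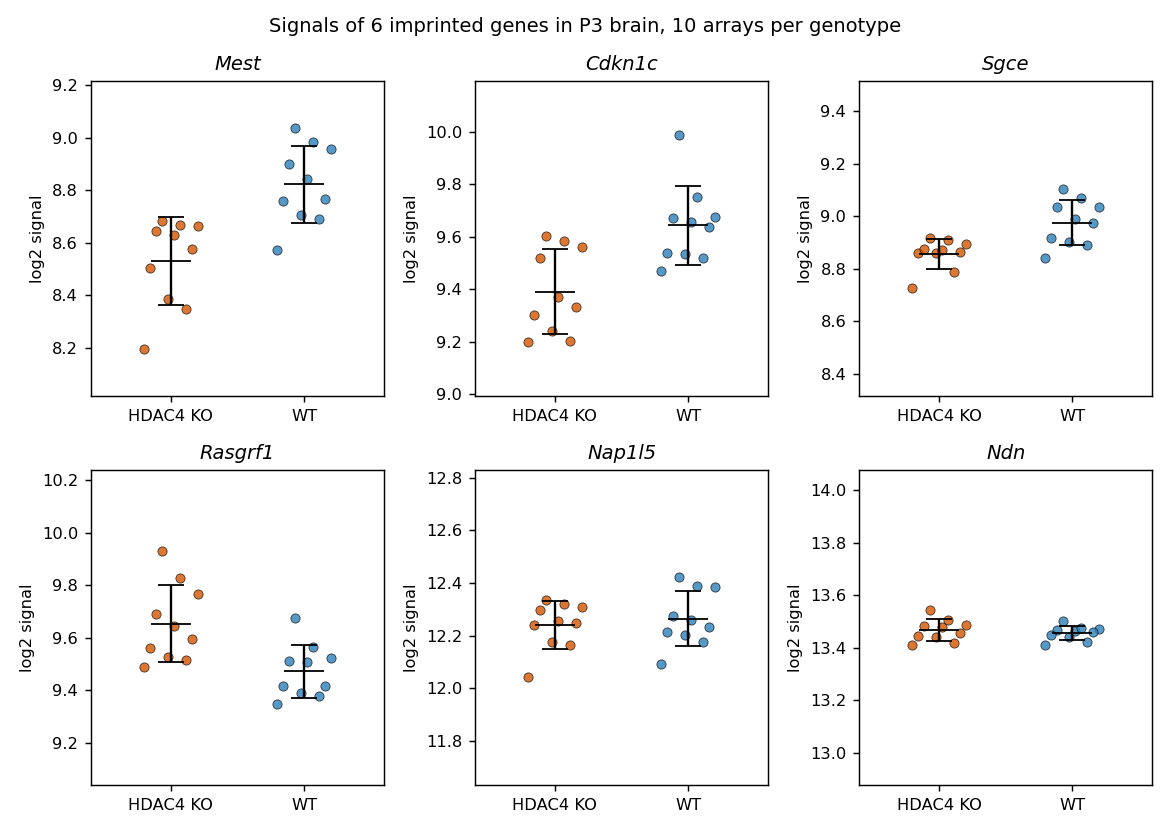
The log2 signal at the brightest probe set (y axis, 1.2 log2 units in each panel) is given for 6 members in each HDAC4 KO array (left) and each WT array (right); points are single arrays and the bars mean and SD (n = 10 each). All HDAC4 KO points lie below the WT mean for Mest, Cdkn1c and Sgce and above it for Rasgrf1, with overlapping ranges in every panel.

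The probe set that H19 shares with Mir675 had signals of 8.98, 9.38 and 9.63 in HDAC4 KO and 9.29, 9.64 and 10.12 in WT. H19 is a maternally expressed growth-restraining RNA, and Mir675 is processed from it. All 10 HDAC4 KO arrays lay below the WT mean but only 1 below every WT array, and the log2 fold change was −0.27 (95% interval −0.45 to −0.08, adjusted p = 0.111 from limma). Igf2, the paternally expressed growth factor gene beside H19, is not among the members. Its brightest probe set, at a mean signal of 11.76, differed by −0.10 (95% interval −0.22 to 0.02, adjusted p = 0.356 from limma), and a dim one, at 4.93, by −0.27 (adjusted p = 0.0857).

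Sgce and Rasgrf1 came next among the members, in opposite directions and short of the threshold. Sgce, the paternally expressed epsilon-sarcoglycan gene that is mutated in human myoclonus dystonia, had signals of 8.73, 8.87 and 8.92 in HDAC4 KO and 8.84, 8.98 and 9.10 in WT. All 10 HDAC4 KO arrays lay below the WT mean, and the log2 fold change was −0.12 (95% interval −0.19 to −0.04, adjusted p = 0.0783 from limma). Its second probe set differed by −0.00 (95% interval −0.27 to 0.26). Without WT replicate 9 the adjusted p of the brightest was 0.0388.

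Peg10, a retrotransposon-derived gene that shares the paternally expressed cluster with Sgce on chromosome 6, had a log2 fold change of 0.10 (95% interval −0.02 to 0.22, adjusted p = 0.37 from limma). Its signals were 3.42, 3.64 and 4.003 in HDAC4 KO and 3.44, 3.61 and 3.65 in WT, and the 4 HDAC4 KO arrays above every WT array widened the spread. Asb4, a maternally expressed substrate adaptor of a ubiquitin ligase in that cluster, had 0.03 (95% interval −0.10 to 0.15).

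Rasgrf1, a paternally expressed exchange factor that activates Ras in neurons, had signals of 9.49, 9.62 and 9.93 in HDAC4 KO and 9.35, 9.46 and 9.67 in WT. All 10 HDAC4 KO arrays lay above the WT mean and 4 above every WT array. The log2 fold change was 0.18 (95% interval 0.07 to 0.30, adjusted p = 0.0843 from limma), and it was 0.12 and 0.02 at the other 2 probe sets. Without WT replicate 9 the adjusted p was 0.0442, and it was also under the threshold with array weights and with dim probe sets left out.

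Nnat, which encodes the paternally expressed proteolipid neuronatin, lies within an intron of Blcap, a gene for a small membrane protein whose imprinting depends on the transcript. Nnat signals were 12.81, 12.93 and 12.97 in HDAC4 KO and 12.88, 13.01 and 13.08 in WT. All 10 HDAC4 KO arrays lay below the WT mean, with a log2 fold change of −0.09 (95% interval −0.15 to −0.02, adjusted p = 0.127 from limma). Blcap signals were 11.01, 11.06 and 11.15 in HDAC4 KO and 11.00, 11.06 and 11.09 in WT, and its fold change was 0.01 (95% interval −0.04 to 0.06).

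The Dlk1-Dio3 cluster on chromosome 12 was represented by 4 genes and 19 probe sets, of which 0 were called by limma, with 4 higher and 1 lower at an unadjusted p under 0.05. Its maternally expressed RNAs Meg3, Rian and Mirg are non-coding, and Rian and Mirg host small nucleolar RNAs and microRNAs. At its brightest probe set Meg3 had signals of 12.91, 13.16 and 13.31 in HDAC4 KO and 12.99, 13.11 and 13.18 in WT, a log2 fold change of 0.04 (95% interval −0.05 to 0.13). The HDAC4 KO arrays spread to both sides of the WT range, with 4 above it and 1 below it.

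The 11 probe sets of Meg3 did not go one way, with 9 fold changes above and 2 below 0, ranging over −0.19 to 0.22. Rian had a log2 fold change of 0.01 (95% interval −0.07 to 0.08) and Mirg of 0.06 (95% interval −0.02 to 0.15). Dlk1, the paternally expressed Notch-like growth regulator of the cluster, had signals of 7.20, 7.40 and 7.63 in HDAC4 KO and 7.11, 7.52 and 7.74 in WT. Its fold change was −0.12 (95% interval −0.26 to 0.02, adjusted p = 0.343 from limma), the WT arrays enclosing the HDAC4 KO arrays. It was −0.00 among the arrays labelled male and −0.25 among those labelled female, and the interaction had an adjusted p of 0.917.

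**Figure D3:**
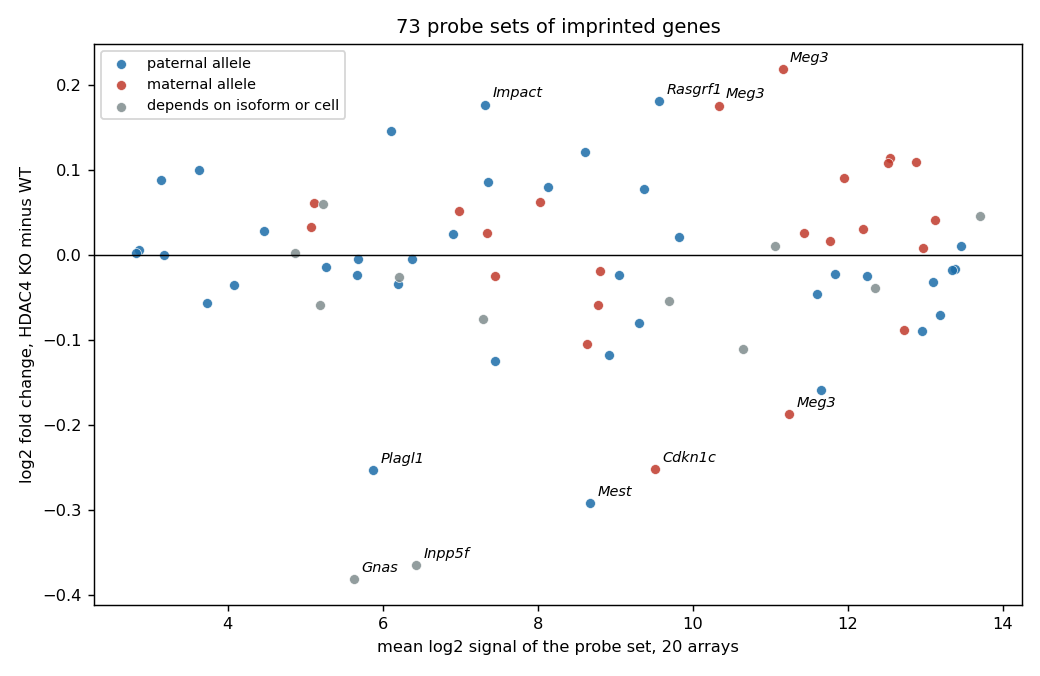
Each point is 1 of the 73 probe sets, with its mean log2 signal over the 20 arrays on the x axis and its log2 fold change (HDAC4 KO minus WT) on the y axis; colours give the allele each gene is known to be expressed from, and probe sets beyond 0.17 either way are named. The lowest points, those of Gnas (−0.38) and Inpp5f (−0.37), were not called, whereas Mest and Cdkn1c were.

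The Prader-Willi cluster on chromosome 7, whose paternal copy is lost in the human syndrome, was represented by 5 genes and 12 probe sets, of which 0 were called by limma and 1 was higher and 1 lower at an unadjusted p under 0.05. Snrpn, a spliceosomal protein gene that starts near the control region, had signals of 7.24, 7.39 and 7.52 in HDAC4 KO and 7.15, 7.31 and 7.45 in WT. With 9 of 10 HDAC4 KO arrays above the WT mean, the log2 fold change was 0.09 (95% interval 0.00 to 0.17, adjusted p = 0.256 from limma). The 6 probe sets that Snrpn shares with Snurf ranged over 0.03 to 0.14, with a lowest adjusted p of 0.0825. Magel2, a regulator of ubiquitin ligases at endosomes that is expressed in the hypothalamus, had signals of 8.04, 8.15 and 8.30 in HDAC4 KO and 7.90, 8.10 and 8.23 in WT. Its fold change was 0.08 (95% interval −0.01 to 0.17, adjusted p = 0.34 from limma).

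Mkrn3, a ubiquitin ligase gene that restrains the onset of puberty, had a log2 fold change of 0.08 (95% interval −0.02 to 0.18). Ndn, which encodes the neuronal growth suppressor necdin, had among the narrowest ranges of the members, 13.41, 13.47 and 13.54 in HDAC4 KO and 13.41, 13.46 and 13.50 in WT. Its fold change was 0.01 (95% interval −0.04 to 0.06), and its 8 probe sets ranged over −0.07 to 0.09. Peg12, a relative of the FRAT regulators of Wnt signalling, had −0.06 (95% interval −0.18 to 0.06).

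In the Peg3 cluster, also on chromosome 7, 0 of 8 probe sets were called by limma, with 0 higher and 2 lower at an unadjusted p under 0.05. Peg3, a paternally expressed zinc finger gene linked to growth in mouse, had signals of 11.74, 11.81 and 11.92 in HDAC4 KO and 11.77, 11.84 and 11.89 in WT. Its log2 fold change was −0.02 (95% interval −0.08 to 0.03) there, and −0.16 (95% interval −0.28 to −0.04, adjusted p = 0.148 from limma) at a second probe set. Usp29, which is transcribed away from Peg3 from the opposite strand, had −0.02 (95% interval −0.11 to 0.07), and the maternally expressed zinc finger gene Zim1 had 0.03 (95% interval −0.11 to 0.17).

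Gnas, which encodes the stimulatory G protein alpha subunit and several transcripts of other parental origin, had the narrowest HDAC4 KO range of the members at its brightest probe set. The signals were 13.70, 13.73 and 13.75 in HDAC4 KO and 13.63, 13.68 and 13.73 in WT, with all 10 HDAC4 KO arrays above the WT mean and a log2 fold change of 0.05 (95% interval 0.00 to 0.09, adjusted p = 0.273 from limma). Another of its 5 probe sets differed by −0.38 (95% interval −0.62 to −0.14, adjusted p = 0.0861), with signals of 4.79, 5.53 and 5.90 in HDAC4 KO and 5.33, 5.87 and 6.01 in WT. The remaining 3 lay between −0.08 and 0.06.

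Inpp5f, an inositol phosphatase gene with an imprinted brain transcript, and Plagl1, the paternally expressed zinc finger factor of an imprinted growth network, had all 3 of their probe sets below 0, by unequal amounts. Inpp5f had −0.04 (95% interval −0.10 to 0.02) at the brightest, −0.11 at another and −0.37 (adjusted p = 0.176 from limma) at the dimmest. Plagl1 had −0.05 (95% interval −0.11 to 0.02) at the brightest, −0.03 at another and −0.25 (adjusted p = 0.106) at the dimmest. Impact, which encodes an inhibitor of the kinase that senses amino acid shortage, had 0.02 (95% interval −0.05 to 0.09) at the brightest and 0.18 (adjusted p = 0.122) at a dimmer probe set. Which transcripts each of these probe sets reads was not examined here. HDAC4 KO replicate 10, the array with both Xist and Kdm5d signals, was the lowest HDAC4 KO array at the dimmest probe sets of Inpp5f and Plagl1. It was also the lowest at the Gnas probe set with −0.38. Below the WT mean lay 8 of 10 HDAC4 KO arrays for Inpp5f, all 10 for Plagl1 and 9 of 10 for Gnas there.

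Grb10, a receptor-binding adaptor that is expressed from the paternal copy in neurons and from the maternal copy elsewhere, had signals of 9.56, 9.67 and 9.74 in HDAC4 KO and 9.65, 9.71 and 9.81 in WT. Its log2 fold change was −0.05 (95% interval −0.12 to 0.01, adjusted p = 0.354 from limma), with 8 of 10 HDAC4 KO arrays below the WT mean. Nap1l5, a paternally expressed retrogene of the nucleosome assembly proteins, had 12.04, 12.25 and 12.34 in HDAC4 KO and 12.09, 12.25 and 12.42 in WT. Its fold change was −0.03 (95% interval −0.12 to 0.07), and that of Slc38a4, a paternally expressed amino acid transporter gene, was −0.02 (95% interval −0.18 to 0.13).

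By the allele each gene is known to be expressed from, 17 genes with 38 probe sets were paternal, 8 with 23 were maternal, and 4 with 12 depended on the isoform or cell. The paternal and the maternal group each held 1 called gene, Mest and Cdkn1c. The median log2 fold change was −0.02 over the paternal probe sets, 0.03 over the maternal ones and −0.05 over the rest, and 22 of 38, 7 of 23 and 8 of 12 were below 0. Since 11 of the 23 maternal probe sets read Meg3, these counts lean on 1 gene. At the brightest probe sets the medians were −0.02, 0.03 and −0.01. Over all their probe sets, the medians of the domains with more than 1 gene ran from −0.16 for Mest-Copg2 and −0.10 for Kcnq1 to 0.03 for Dlk1-Dio3 and 0.03 for Peg10-Sgce. Mest-Copg2 and Kcnq1 each hold 2 probe sets, so their medians average a called gene and its neighbour. Among the domains with more than 1 gene, the highest median at the brightest probe sets was that of the Prader-Willi domain, 0.08.

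The genotypes were also compared within the arrays of each labelled sex. There limma called 0 members in either sex, and 14 of 73 were at an unadjusted p under 0.05 in the male and 9 of 73 in the female contrast. Of all probe sets, 0.0377% were called in the male and 0.0400% in the female contrast, and 12.5% and 11.2% were at an unadjusted p under 0.05. The interaction of genotype and sex called 0 members and 0 of all probe sets, with 0 members and 5.35% of all probe sets at an unadjusted p under 0.05. Of the sex labels, 3 were at odds with Xist, and those of WT replicates 5 and 9 also with Kdm5d, as given above.

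How much the members varied among pups of 1 genotype was also described. The SD within genotype at the brightest probe set was greater than that of most probe sets within 0.5 log2 of the same level for Meg3 (92.0% of them had a lower SD), Cdkn1c (91.8%), Nap1l5 (88.0%), Mest (87.1%) and Rasgrf1 (86.6%). It was smaller than that of most for Blcap (5.09%), Snrpn (14.5%) and Grb10 (15.4%). Both called genes were among the more variable members.

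Members of 1 cluster, and Plagl1 with Cdkn1c, which lie on different chromosomes, were compared across the 20 arrays after the mean of each genotype was subtracted. Of 10 pairs, 1 passed after adjustment over the pairs, Nnat and Blcap (Pearson r = 0.702, p = 0.00088, adjusted p = 0.0088, Spearman rho = 0.656, p = 0.00274, permutation test with 100000 resamples). The correlation was 0.727 within HDAC4 KO and 0.696 within WT, and 0.634 without the 2 arrays farthest from the median of Nnat. Before the subtraction it was 0.46 (adjusted p = 0.14, permutation test), the genotypes being offset in Nnat and not in Blcap.

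Mest and Copg2 had r = 0.544 (p = 0.0152, adjusted p = 0.0759, rho = 0.477, p = 0.0412, permutation test), 0.72 within HDAC4 KO and 0.417 within WT, and 0.352 without the 2 farthest arrays. Plagl1 and Cdkn1c, members of the growth network led by Plagl1, had r = 0.148 (adjusted p = 0.68, rho = 0.056, p = 0.816, permutation test). Among the RNAs of the Dlk1-Dio3 cluster, r was −0.298 for Meg3 and Rian and 0.294 for Meg3 and Mirg at the brightest probe sets (adjusted p = 0.498 for each, permutation test). These pairs depended on the probe sets, since with the mean of all probe sets of a gene r was 0.588 for Meg3 and Rian (adjusted p = 0.038) and 0.779 for Meg3 and Mirg (adjusted p = 0.0044). Arrays also share RNA quality and tissue content, whose part in these correlations was not tested.

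**Figure D4:**
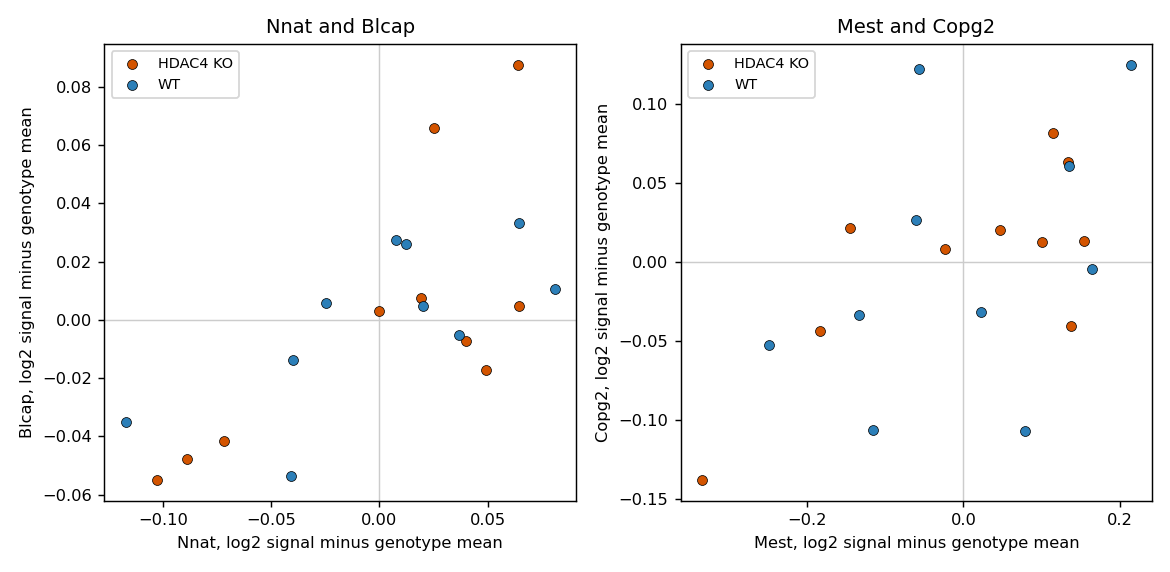
Each point is 1 array, with its log2 signal minus the mean of its genotype for Nnat (x) against Blcap (y) on the left and Mest (x) against Copg2 (y) on the right, HDAC4 KO in orange and WT in blue. Over all 20 arrays r was 0.702 for Nnat and Blcap and 0.544 for Mest and Copg2. Within HDAC4 KO it was 0.727 and 0.72, and within WT 0.696 and 0.417, in the same order.

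Imprinted genes outside the members were looked up as a wider list. Of 40 listed genes, 35 were measured with 79 probe sets, of which 0 were higher and 1 was lower, a dim probe set of Ube3a (−0.29, adjusted p = 0.0317 from limma). At an unadjusted p under 0.05, 10 were higher and 14 lower. Of all probe sets, 1.05% were called higher and 1.01% lower, and 9.93% were higher and 8.10% lower at that unadjusted p. Ube3a encodes the ubiquitin ligase that is silenced on the paternal copy in neurons and lost in human Angelman syndrome, and its brightest probe set differed by −0.09 (95% interval −0.18 to −0.01, adjusted p = 0.234 from limma). Between these in level, Ube3a probe sets at mean signals of 7.70 and 7.13 differed by −0.27 and −0.21 (adjusted p = 0.111 and 0.141 from limma). At the brightest probe set 0 of the 35 genes were called. The lowest unadjusted p there were those of Ppp1r9a, a neuronal scaffold of protein phosphatase (0.09, adjusted p = 0.102), Atp10a, a lipid flippase gene (0.24, 0.105), Cd81, a tetraspanin gene (0.10, 0.106), and Casd1, a sialic acid acetyltransferase gene (−0.08, 0.173).

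Genes that set, keep or read imprints were the last list. Of 26, 24 were measured with 57 probe sets, of which 0 were higher and 3 lower, and 6 were higher and 11 lower at an unadjusted p under 0.05. The shares of all probe sets were 1.05% called higher and 1.01% lower, and 9.93% higher and 8.10% lower at that unadjusted p. The 3 called regulator probe sets were 1 of Dnmt3a, the DNA methyltransferase that lays down germ-line imprints (−0.21, adjusted p = 0.0248 from limma), and 2 of Atrx, a chromatin remodeller (−0.74, adjusted p = 0.0298, and −0.54, adjusted p = 0.0413). None of the 3 was the brightest probe set of its gene, where Dnmt3a differed by 0.01 (95% interval −0.06 to 0.08) and Atrx by 0.02 (95% interval −0.05 to 0.10). By qPCR, the study reported a minor increase of Atrx in HDAC4 KO brains, against the direction of the called probe sets. At the brightest probe sets 0 of the 24 genes were called. The lowest unadjusted p were those of Ctcf, the insulator protein that reads the control region beside H19 (−0.20, adjusted p = 0.117), Smchd1 (−0.10, 0.177), a chromatin silencer, the cohesin subunit Rad21 (−0.10, 0.181), and Uhrf1, which guides maintenance methylation (−0.21, 0.228).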

How the data were processed

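Whole-brain RNA of 10 HDAC4 KO and 10 WT pups was labelled by the authors from 200 ng with a 3′ in vitro transcription kit and hybridized to Affymetrix arrays, and arrays failing quality control were excluded. The authors deposited log2 signals, 1 per probe set and array. How these were summarized and normalized is not stated in the sources used here, and the signals were used without further scaling. Of 45101 probe sets, 64 controls were left out. Genes were named from the platform annotation, in which 34945 probe sets carried 1 symbol, 932 several and 9160 none. Probe sets with several symbols named no gene. The number of arrays limits the precision, and p-values measure the spread between pups.

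HDAC4 KO was compared with WT in a model without covariates by limma 3.58.1 (lmFit, eBayes; R 4.3.3), two-sided, with Benjamini-Hochberg adjustment over all 45037 probe sets and a threshold of 0.05. The methods name a 2-tailed t-test, run as an alternative. Sex contrasts came from a fit of 4 groups. The fit and the correlations were tested on simulated data. The members and lists were chosen with earlier results of these data known. Named in full were members with a called probe set, up to 2 others per domain and up to 4 genes of either wider list by unadjusted p at the brightest probe set, and Hdac4. Outside that rule, Igf2, Ube3a, Dnmt3a, Atrx, the named cell markers and the dimmer probe sets were chosen after their values were seen.

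Alternatives were the t-test, Welch's test, trend and robust eBayes, array weights, labelled sex or the 3′ to 5′ signal difference in the model, a replicate block, dim probe sets left out (22603 kept), quantile normalization, median centring, the brightest probe set per gene, and each array left out. Leaving out the pair of arrays with Hdac4 signals between the genotypes, and the 3 arrays at odds with their sex label, was added after seeing the data. Pairs with H19 were not computed. Of the other marker lists, endothelial and mural cells (23 probe sets), erythroid cells (8), hypothalamus and pituitary (18) and skeletal muscle and cartilage (14) had 0 called by limma, with 1, 1, 1 and 0 higher and 1, 0, 0 and 0 lower at an unadjusted p under 0.05. Astrocytes and radial glia had 1 of 31 lower (Nes, −0.29) and neurons 3 of 29 lower (Slc17a6, Syt1 and Nefl), with 10 and 7 lower and 2 and 4 higher at that p. By qPCR, the study reported no change of Syt1 and a decrease of Calml4 in HDAC4 KO brains.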

Additional observations from a re-analysis of the deposited data

Results flagged for a closer look

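Rian, the maternally expressed RNA that hosts small nucleolar RNAs, had 1 array far below the others in each genotype at its brightest probe set. HDAC4 KO replicate 3 was lowest at a log2 signal of 12.75, with the next HDAC4 KO array at 12.945, a gap of 0.584 of the whole range of its group. WT replicate 7 was lowest at 12.807, with the next WT array at 12.958, a gap of 0.709 of the range. Both gaps exceeded the 95% critical value of Dixon's ratio for 10 arrays, which chance passes in about 1 in 20 groups, and these were 2 of the 58 groups tested. The probe sets of Rian disagreed on these arrays. Both were also the lowest of their genotype at another Rian probe set. At a dimmer one they were the highest, at 9.14 in HDAC4 KO replicate 3 and 8.94 in WT replicate 7. No member differed in its genotype effect between the labelled sexes (lowest adjusted p of the interaction 0.917 from limma).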

How the results depend on the processing

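Leaving out single arrays moved the counts of called probe sets to 184 to 991 higher and 167 to 724 lower over all probe sets (474 and 453 in the model as reported), 0 to 1 higher and 0 to 4 lower among the members, 0 higher and 0 to 2 lower among the other imprinted genes, and 0 higher and 0 to 4 lower among the regulators.

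Over all probe sets, 765 were higher with trend and robust eBayes, 789 higher and 712 lower with array weights, 23 higher and 20 lower with the 3′ to 5′ difference in the model, and 996 higher with dim probe sets left out. Welch's test called 267 lower, and the brightest probe set per gene 132 lower. Without both arrays with Hdac4 signals between the genotypes, 157 were higher and 170 lower, and without the 3 arrays at odds with their sex label 174 and 241, with fewer samples in each fit. Over the 10 shared replicate numbers, 1 pair of arrays correlated above 0.1 and 0 arrays best with their own number, so the numbers were not taken to pair the samples; the replicate block gave 308 higher and 640 lower, and 0 higher and 3 lower among the members.

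Among the members, 1 was higher with the t-test, with array weights and after dim probe sets were removed. The lower ones were 1 with the t-test, with Welch's test, with labelled sex in the model and in both added settings, and 0 once the 3′ to 5′ difference was included. Of the other imprinted genes, 1 was higher with trend and robust eBayes and 3 with dim probe sets left out, and 0 were lower with Welch's test, the 3′ to 5′ difference, dim probe sets left out, the brightest probe set per gene, or without both arrays between the genotypes. Of the regulators, 1 was higher with the t-test and after removal of dim probe sets, and the lower ones were 1 with Welch's test and 0 with the 3′ to 5′ difference, the brightest probe set per gene, or without both arrays between the genotypes. The called probe sets of Dnmt3a, Atrx and Ube3a are not the brightest of their genes, so the setting with the brightest probe set did not hold them. The called probe set of Ube3a lay below the median of every array and was left out with the dim ones. Both settings also adjusted over fewer probe sets, 18193 and 22603. The cause of the other shifts was not tested.

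Of 593 group medians under the alternatives, 590 moved by less than the spread. The others were −0.25 for Kcnq1 with dim probe sets left out, and 0.0771 for the Prader-Willi cluster and 0.0204 for Impact at the brightest probe set. Far from the threshold, the sign changed for Impact with the 3′ to 5′ difference (−0.0015) and for Slc38a4 without WT replicate 7 (0.0007) or HDAC4 KO replicate 2 (0.007; −0.0656 to 0.007 over all arrays left out), and for no other named gene. Of the pairs, 0 passed without subtraction of the genotype means, where r of Peg10 and Sgce was −0.231, and 4 with the mean of all probe sets of each gene, where r of Meg3 and Rian was 0.588 (adjusted p = 0.038, permutation test). Dim probe sets limit what can be read for Peg10, Peg12, Zim1, Phlda2 and Slc38a4.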
